A study of Mus musculus with 2 samples.

Results

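Cathepsins and cystatins are the proteases of the lysosome and the proteins that inhibit some of them. Their transcripts were followed in single muscle stem cells of the mouse and in the other cells sorted with them. The 9 members were picked by gene symbol out of 32285 features counted in both matrices. They are the proteases Ctsb, Ctsl, Ctss, Ctsz, Ctsd, Ctsa and Lgmn and the inhibitors Cst3 and Cstb. The study compared quiescent satellite cells (QSC) with activated satellite cells (ASC), the resident stem cells of skeletal muscle before and after injury. QSC came from uninjured tibialis anterior (TA) muscle, and ASC from the same muscle 1.5 days after an injection of cardiotoxin, a toxin that destroys muscle fibres. All mice were Pax7 CreERT2/+ ;Rosa26 mTmG/+ and 8 weeks old, so that both groups carried the same inducible Cre under Pax7 control and the same membrane reporter, and cells were obtained by digestion of the muscle and fluorescence sorting. Each group was 1 library from a pool of mice, profiled by droplet sequencing of the 3′ ends of transcripts with unique molecular identifiers (UMIs). With 1 library a group no test between QSC and ASC is possible, and the intervals below, exact and at 95%, cover counting error only. They do not cover the difference between mice or between sorts.

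Cathepsins are made as inactive precursors and mature in the acid of endosomes and lysosomes, where they degrade proteins that arrive by endocytosis and autophagy. Ctsb, Ctsl, Ctss and Ctsz encode papain-like cysteine proteases, Ctsd an aspartic protease and Ctsa a serine carboxypeptidase that also protects lysosomal glycosidases. Lgmn encodes legumain, an asparaginyl endopeptidase that processes other cathepsins. Cst3 encodes cystatin C, which is secreted and binds papain-like proteases outside cells and in the secretory route, and Cstb encodes cystatin B, which binds them in the cytosol and nucleus. Cathepsin S is best known from cells that present antigen, in which it trims the invariant chain.

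Barcodes were used where 500 or more genes were detected and mitochondrial UMIs were no more than 10%, which left 516 of 766 QSC barcodes with 1162091 UMIs and 1468 of 1650 ASC barcodes with 8895815 UMIs. The median depth was 2155 UMIs in QSC and 3502 in ASC, and the libraries shared 2 of these barcodes. Levels are UMI counts scaled to a total of 1000000 UMIs for the library or class (CPM). They are 3′ end counts and are not divided by transcript length. Barcodes outside non-muscle clusters were split at 5% of UMIs from 10 contractile and myocyte markers. Contractile-low muscle cells numbered 370 in QSC and 414 in ASC. Contractile-high barcodes, in which transcripts of muscle fibres were abundant, numbered 104 and 939. One cluster of 16 QSC and 85 ASC cells was macrophage/monocyte-like, led by Lyz2, Plac8 and Cd74, and 26 and 30 cells fell in other non-muscle clusters. All 10 quiescent satellite cell markers, Pax7 among them, were detected in the contractile-low cells, with a summed level of 5965 CPM in QSC and 1268 CPM in ASC. The summed level of 10 activation markers, Myod1 among them, was 591 CPM in the QSC cells and 4368 CPM in the ASC cells. The label of muscle stem cells thus fitted these cells, and not the contractile-high barcodes, in which quiescent markers summed to 145 CPM in QSC and 64.0 CPM in ASC.

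Over all barcodes the 9 members took 2305 QSC UMIs (0.198%) and 14333 ASC UMIs (0.161%). Of these, 15.7% in QSC and 35.1% in ASC lay in macrophage/monocyte-like cells, which were 3.10% and 5.79% of the barcodes. The members did not move as 1 group between the libraries. Ctss and Cstb were higher in ASC by at least 2-fold and no member was lower by that much, while 14.0% of 5014 genes with a mean of at least 20 CPM were at least 2-fold higher and 19.5% at least 2-fold lower. These calls changed with the barcodes used and with the scaling. The log2 ratio of Ctss was 0.85 with mitochondrial UMIs limited to 5%, that of Cstb was 0.93 as the mean over barcodes and 0.85 without non-muscle clusters, and as the mean over barcodes Ctsl (-1.35) and Ctsz (-1.34) were past 2-fold lower. Without non-muscle clusters they were so as well, at -1.09 and -1.06. Ctsl was so too without the deepest 5% of barcodes (-1.12) and under a stricter limit on detected genes (-1.03). Ctsd passed 2-fold higher with mitochondrial UMIs limited to 5% (1.06) or 1% (2.25) and as the mean over barcodes (1.22). It did so too without the deepest 5% (1.16) and under scaling by trimmed mean of M values (1.24). Ctsd stayed below 2-fold without non-muscle clusters (0.71) and under the stricter gene limit (0.77). The median log2 ratio was -0.43 over the 9 members and 0.03 over those genes.

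Among the papain-like cathepsins, the library level of Ctsl was 440 CPM in QSC and 225 CPM in ASC, a log2 ratio of ASC over QSC of -0.97 (-1.11 to -0.82). The level of Ctsz was 295 and 167 CPM (log2 ratio -0.82, -0.99 to -0.65). The level of Ctsb was 287 and 213 CPM (log2 ratio -0.43, -0.60 to -0.26). These 3 were lower in ASC beyond counting error, and Ctss was the exception. Ctss had 44 UMIs in QSC and 858 in ASC, levels of 37.9 and 96.4 CPM (log2 ratio 1.35, 0.91 to 1.82). Ctsd, the aspartic cathepsin, was also higher in ASC, at 138 and 263 CPM (log2 ratio 0.94, 0.70 to 1.18).

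Ctsa, the carboxypeptidase, was at 50.8 CPM in QSC and 34.6 CPM in ASC (log2 ratio -0.55, -0.96 to -0.12). Lgmn was at 62.0 and 56.5 CPM, and the interval of its log2 ratio, -0.49 to 0.25, spanned 0. The inhibitors went opposite ways. Cst3 was at 583 CPM in QSC and 346 CPM in ASC (log2 ratio -0.75, -0.87 to -0.63), and Cstb at 90.4 and 209 CPM (log2 ratio 1.21, 0.93 to 1.51). The summed level of all members, 1983 and 1611 CPM, had a log2 ratio of -0.30 (-0.36 to -0.24), which came to 0.0097 under scaling by trimmed mean of M values (TMM). That scaling raised every log2 ratio by 0.31. It left Ctsl, Ctsz and Cst3 lower and Ctsd, Ctss and Cstb higher in ASC beyond counting error, while the intervals of Ctsb (-0.12, -0.29 to 0.05) and Ctsa (-0.24, -0.65 to 0.18) spanned 0. The methods of the paper give a mitochondrial limit of 1%, stricter than the limit used here. With mitochondrial UMIs limited to 1%, which left 80 member UMIs in QSC, the log2 ratios of Ctsb (1.48), Ctsl (0.62), Ctsz (1.56) and Ctsa (0.83) changed sign, and that of Lgmn went from -0.13 to 2.63 on 1 QSC UMI. That limit removed most contractile-low muscle cells of both libraries, whose median mitochondrial shares were 4.89% in QSC and 2.30% in ASC.

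**Figure D1:**
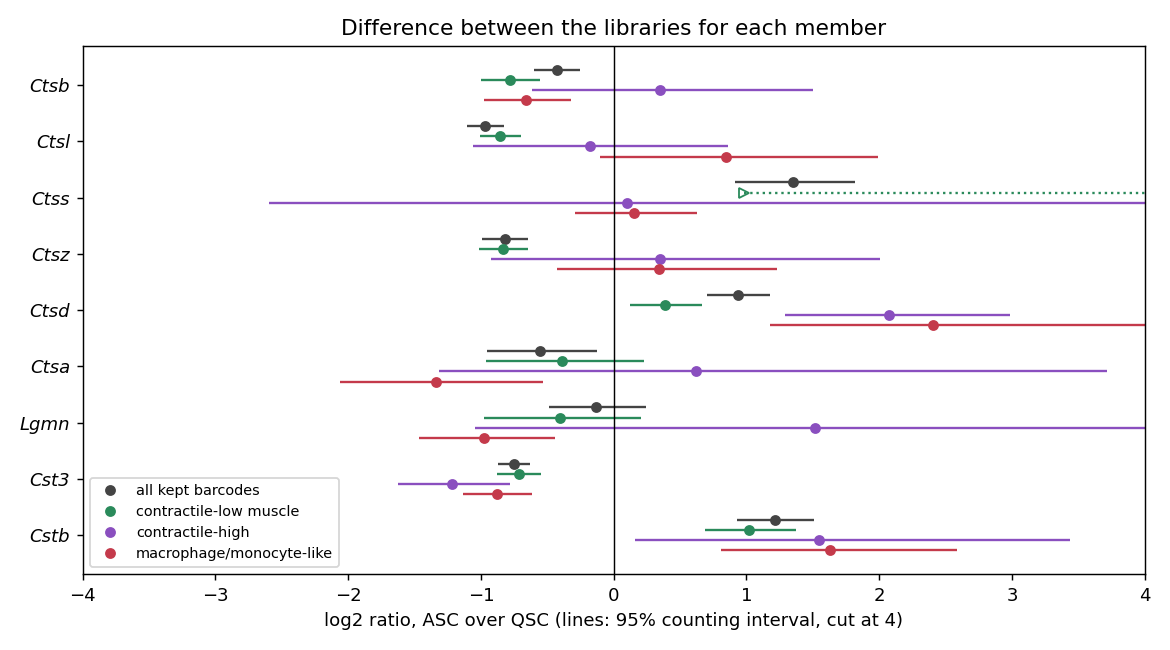
Log2 ratio of ASC over QSC (horizontal axis) for each member, in all kept barcodes and in 3 classes. Points are ratios of CPM and lines are 95% counting intervals cut at 4. The open triangle marks Ctss in contractile-low cells, which had 0 UMIs in QSC, as the ASC level over a floor of 3 UMIs. Cst3 lay left of 0 and Cstb right of 0 in every class shown, while Ctsd was farthest to the right in contractile-high and macrophage/monocyte-like cells.

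The level in each class shows which cells held these transcripts. A lower library level can come from fewer cells of a class or from less RNA in each, and the 2 cannot be told apart in a library sum, so each class is given apart. In contractile-low muscle cells Ctsl was at 534 CPM in QSC (486 to 585) and 296 CPM in ASC (281 to 311). Ctsz was at 364 CPM (324 to 407) and 204 CPM (192 to 217). Ctsb was at 249 CPM (217 to 285) and 145 CPM (135 to 156). The log2 ratios of these 3 cysteine cathepsins were close together in the summed UMIs, at -0.85, -0.83 and -0.78, and none of their intervals overlapped between the libraries. As the mean over barcodes they were farther apart, at -0.60, -0.78 and -0.41. The median mitochondrial share of these cells was 4.89% in QSC and 2.30% in ASC, and its part in the differences was not tested.

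Cst3 was lower as well, at 444 CPM in QSC (400 to 491) and 271 CPM in ASC (257 to 285), a log2 ratio of -0.71 (-0.88 to -0.55). Markers of other cells differed within this class too. The summed level of 9 fibroblast markers was 3415 CPM in QSC and 621 CPM in ASC, that of 6 pericyte and smooth muscle markers 382 and 1267 CPM, and that of 5 erythroid markers 131 and 1683 CPM. Of these, the fibroblast markers Pdgfra, Smoc2 and Mfap5 were at 0 in ASC and the erythroid marker Alas2 in QSC, and their part in the differences of the members was not tested. Cstb was higher, at 93.3 CPM in QSC (73.9 to 116) and 190 CPM in ASC (178 to 202), a log2 ratio of 1.02 (0.69 to 1.37). Cstb was the only tested member past 2-fold in this class, in which 17.8% of 5117 genes were at least 2-fold higher and 20.7% at least 2-fold lower in ASC. It was below 2-fold in 4 other settings, with log2 ratios of 0.996 at a contractile limit of 10%, 0.98 with contractile and mitochondrial genes left out of the total, 0.89 as the mean over barcodes and 0.79 without cells that held 3 or more macrophage marker UMIs. Ctsd was at 152 CPM in QSC (127 to 181) and 199 CPM in ASC (187 to 212), a log2 ratio of 0.39 (0.12 to 0.66). Ctsa was at 35.4 and 27.1 CPM and Lgmn at 36.6 and 27.6 CPM, and the intervals of both log2 ratios spanned 0. The ASC cells also carried 145 CPM of 14 macrophage and monocyte markers against 82.7 CPM in the QSC cells, and 114 of the 414 ASC cells but none of the QSC cells held 3 or more UMIs of them. Without those cells the log2 ratio was -0.69 for Ctsl, -0.38 for Ctsb, -0.37 for Cst3 and 0.71 for Ctsd and 0.79 for Cstb, of the same sign as with them. A cut at a count of UMIs falls more on deep cells, and median depths were 2221.5 UMIs in QSC and 8483 in ASC. The cut took the member UMIs of ASC from 7222 to 3628, so macrophage RNA and depth cannot be told apart by it.

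In contractile-low cells at equal depth, shares of cells had the same order between the libraries as the levels. Only Ctsl and Ctsd had intervals apart. Each cell was thinned to 1200 UMIs so that depth was equal, which left out 4 QSC and 5 ASC contractile-low cells. At this depth a UMI of Ctsl was found in 43.2% of QSC cells (38.0 to 48.4) and 33.0% of ASC cells (28.5 to 37.8), against 64.9% and 82.9% before thinning. The order of the libraries was thus opposite before and after thinning. In contractile-high barcodes thinned alike the shares for Ctsl were 5.56% and 5.63%. Median depths before thinning were 2221.5 and 8483 UMIs in contractile-low cells and 1635 and 2661 UMIs in contractile-high barcodes. For Ctsd the thinned shares were 13.4% in QSC (10.1 to 17.3) and 22.0% in ASC (18.1 to 26.3). For Cst3 they were 38.0% (33.0 to 43.2) and 30.3% (25.9 to 35.0), and the intervals overlapped. Intervals also overlapped for Ctsz (30.3% in QSC and 23.7% in ASC), Ctsb (26.0% and 21.3%) and Cstb (10.1% and 14.9%). At this depth a contractile-low cell held UMIs of a median of 2 members in QSC and 1 in ASC, and a macrophage/monocyte-like cell of 5 members in both.

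**Figure D2:**
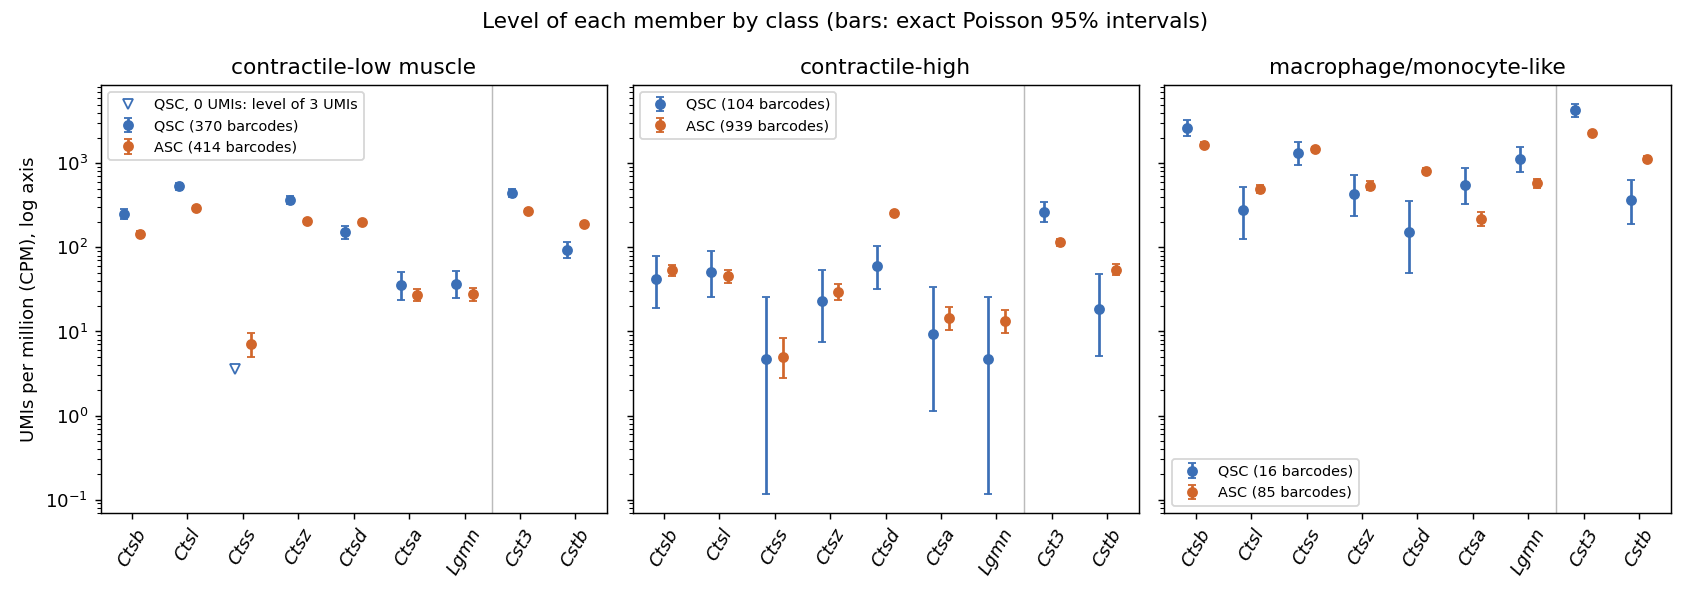
Level of each member in CPM on a log axis, in 3 classes, with QSC in blue and ASC in orange. Bars are exact Poisson 95% intervals, the open triangle is the level of 3 UMIs where 0 were counted, and the grey line separates proteases from inhibitors. Ctsd in contractile-high barcodes was at 60.6 CPM in QSC and 255 CPM in ASC, and in ASC all 9 members were higher in macrophage/monocyte-like cells than in either muscle class.

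The clusters within contractile-low cells separated the members further. Clusters are named by number, since the members and 92 other lysosomal genes were left out of the clustering and the cluster names rest on markers. Most QSC cells of this class, 247 of 370, lay in cluster 2, led by Fosb and Chodl, and a further 70 lay in cluster 5. The ASC cells lay mostly in cluster 3 (230 cells, led by Bgn, C1qtnf3 and Iigp1), cluster 5 (104 cells, led by Rrm2, with Cdc20 and Birc5 among its top genes, all of them genes of dividing cells) and cluster 9 (46 cells, led by Cdkn1c, Mymk and Myog, genes of cells that enter differentiation; this cluster alone was activated satellite cell-like by the markers). Of the 10 quiescent markers, 9 were detected and higher in cluster 3, as in cluster 2, and none in cluster 5. Cluster 5 cells of ASC were deep, with a median of 17703 UMIs over the whole cluster against 5615 in cluster 3.

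Cst3 was at 467 CPM in QSC cluster 2 (278 UMIs) and 438 CPM in ASC cluster 3 (780 UMIs), a log2 ratio of -0.09 (-0.29 to 0.11). It was at 184 CPM in cluster 5 and 201 CPM in cluster 9. The ASC level of Cst3 was thus within counting error of the QSC level in cluster 3 and 2.39-fold lower in cluster 5 than in cluster 3. Ctsb had the same order, at 223 CPM in QSC cluster 2, 224 CPM in ASC cluster 3, 164 CPM in cluster 9 and 91.2 CPM in cluster 5. The log2 ratio of Ctsb in ASC cluster 5 over ASC cluster 3 was -1.30 (-1.54 to -1.06). The low level of Ctsb in cluster 5 was that of the ASC cells only. The 70 QSC cells of cluster 5 held Ctsb at 325 CPM (234 to 440) and Ctsl at 395 CPM (294 to 519).

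Ctsl and Ctsz were lower than in QSC cluster 2 in each of the 3 ASC clusters. Ctsl was at 556 CPM in QSC cluster 2 and at 333, 302 and 191 CPM in ASC clusters 3, 5 and 9. Ctsz was at 379 CPM and at 197, 221 and 151 CPM in the same order. For both, the intervals of clusters 3 and 5 overlapped, and cluster 9 was the lowest.

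Ctsd and Cstb parted in cluster 9. Ctsd was at 149 CPM in QSC cluster 2, 232 CPM in ASC cluster 3, 135 CPM in cluster 5 and 421 CPM in cluster 9 (254 UMIs). Its level in cluster 9 was 1.82-fold that in cluster 3 and 3.12-fold that in cluster 5. Cstb was at 90.6 CPM in QSC cluster 2, 192 and 213 CPM in ASC clusters 3 and 5, and 92.8 CPM in cluster 9 (56 UMIs). Cstb in cluster 9 was therefore within counting error of QSC (log2 ratio 0.03, -0.53 to 0.60), while Ctsd was at its highest there among these 4 groups of cells. Ctsa and Lgmn were at or below 36.5 CPM in all 4.

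**Figure D3:**
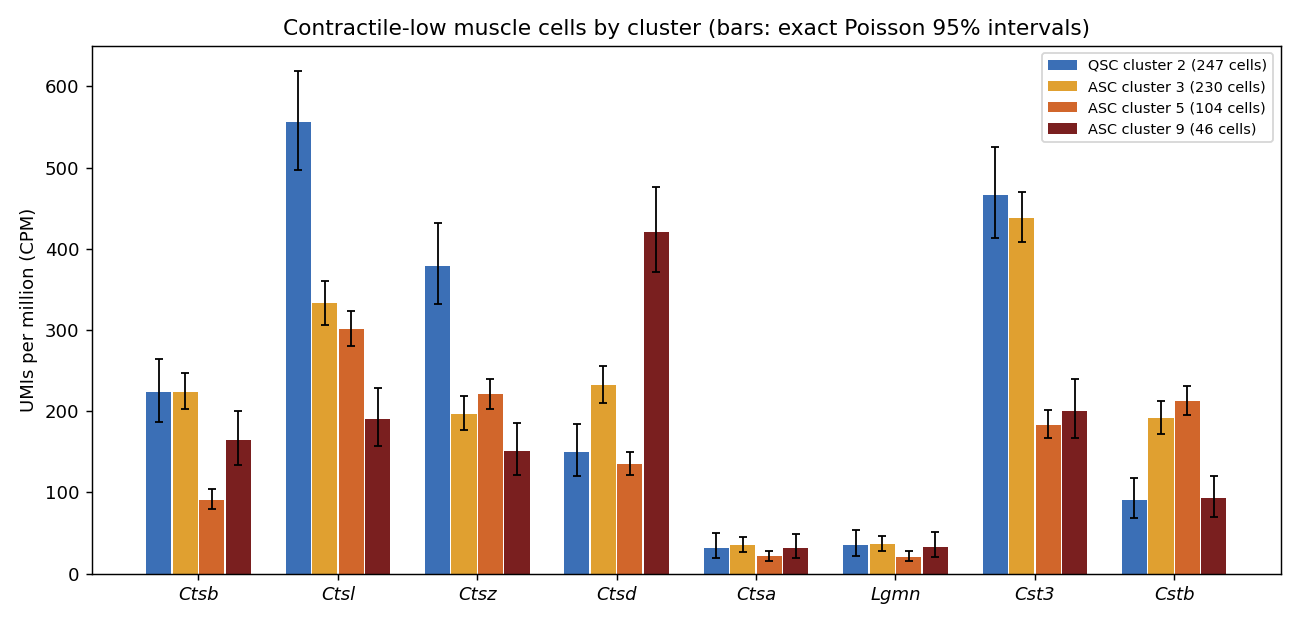
Level in CPM of 8 members in contractile-low muscle cells of QSC cluster 2 and ASC clusters 3, 5 and 9. Bars are levels with exact Poisson 95% intervals. Cst3 and Ctsb were alike in QSC cluster 2 and ASC cluster 3, Ctsl and Ctsz were lower in all 3 ASC clusters, and Ctsd reached 421 CPM in cluster 9.

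In contractile-high barcodes the order of the members was different. Ctsd had 13 UMIs in QSC and 763 in ASC, levels of 60.6 CPM (32.3 to 104) and 255 CPM (237 to 273). The log2 ratio was 2.07 (1.29 to 2.99), a 4.20-fold difference. Among genes of the same class with a mean of at least 20 CPM, 16.2% were at least 2-fold higher and 9.94% at least 2-fold lower in ASC, and of the 6 members at that level Ctsd and Cstb were past 2-fold higher and Cst3 past 2-fold lower. Cstb rested on 4 QSC UMIs and 163 ASC UMIs, at 18.6 and 54.4 CPM. Cst3 was at 266 CPM in QSC (201 to 344) and 114 CPM in ASC (103 to 127), a log2 ratio of -1.22 (-1.62 to -0.78).

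In ASC the level of Ctsd in contractile-high barcodes was 128% of that in contractile-low cells, with a log2 ratio of 0.35 between the classes (0.22 to 0.49). The other members had 14.5% to 71.5% of their contractile-low level there. In QSC all members with UMIs in both classes were lower in contractile-high barcodes, Ctsd at 39.8%, Ctsl at 9.61% and Ctsz at 6.41% of the contractile-low level, and Cst3 at 59.8%, though the interval for Ctsa, with 2 contractile-high UMIs, reached past 0. A Ctsd UMI was found in 24.4% of ASC contractile-high barcodes thinned to 1200 UMIs (21.6 to 27.4) and in 6.67% of QSC ones (2.49 to 13.9). Without thinning the shares were 46.9% and 8.65%. Levels of the cysteine proteases, such as Ctsl at 51.3 and 45.4 CPM and Ctsz at 23.3 and 29.7 CPM in QSC and ASC, did not differ beyond counting error in this class.

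The contractile-high clusters showed Ctsd across fibre types. Ctsd was at 263 CPM in ASC cluster 0, whose leading genes include the fast fibre myosin Myh4, and at 262 CPM in cluster 1, led by Mybph, Ankrd1 and Csrp3. It was at 295 CPM in cluster 4 and at 137 CPM (39 UMIs) in cluster 6, led by the slow fibre genes Tnni1, Myl10 and Tnnc1. Cluster 6 was 1.92-fold below cluster 0 (log2 ratio -0.94, -1.47 to -0.46), and clusters 0, 1 and 4 overlapped. Most QSC contractile-high barcodes, 95 of 104, lay in cluster 8, led by Pdk4, Neb and Trdn, which held 2 ASC barcodes. Ctsd was at 65.1 CPM there, and Cst3 at 276 CPM, against 66.5 to 123 CPM of Cst3 in the 4 ASC clusters. Since different clusters held the class in each library, the library and the kind of fibre cannot be told apart.

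**Figure D4:**
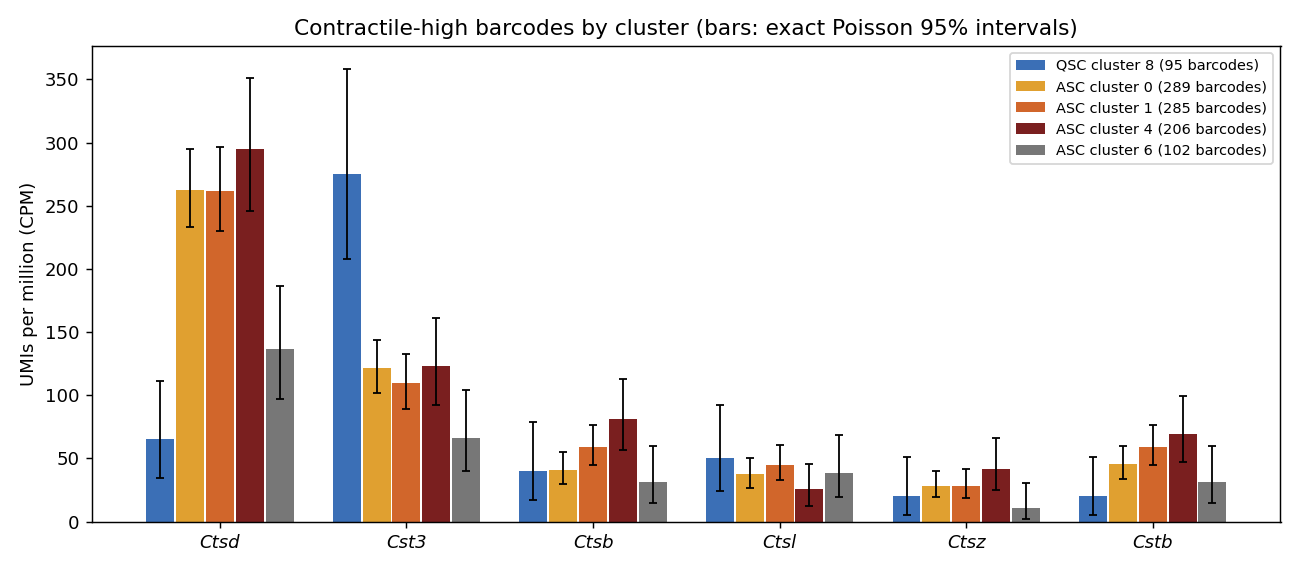
Level in CPM of 6 members in contractile-high barcodes of QSC cluster 8 and ASC clusters 0, 1, 4 and 6. Bars are levels with exact Poisson 95% intervals. Ctsd was above QSC cluster 8 in ASC clusters 0, 1 and 4 with intervals apart, and Cst3 was below it in all 4 ASC clusters.

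The promoter windows of the members are given for the sequences that known lysosomal and myeloid regulators read. RefSeq windows of 250 bases before and 50 after the start site (GRCm38.p6) were at hand for 7 of the 9 members, as 9 windows. They were searched on both strands for CACGTG, a form of the E-box, and for TCACGTGA, a longer form that holds CACGTG within it. The longer form lies in the element bound by TFEB and related factors. GAGGAAGT, a form of the site of the myeloid factor PU.1, and TGACTCA, the AP-1 site, were searched as well. CACGTG was in windows of Ctsd, Ctsa, Lgmn and Ctsl, and in 7.15% of all 32851 windows. TCACGTGA was in windows of Ctsd and Ctsa and in 0.974% of all windows. GAGGAAGT was in the window of Ctss, as its complement, and in 3.20% of all, and TGACTCA was in none of the members' windows and in 1709 of all. The matches are shown as stretches of 30 bases on the gene's strand, with the matched letters in capitals.
Ctsd, chr7:142387908-142387937, minus strand: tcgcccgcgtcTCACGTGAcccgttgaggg
Ctsd, chr7:142388048-142388077, minus strand: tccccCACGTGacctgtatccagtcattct
Ctsa, chr2:164833758-164833787, plus strand: tgTCACGTGAtgcagatgcTCACGTGAcca
Lgmn, chr12:102439123-102439152, minus strand: ggaatgtctgtCACGTGgtccattttatag
Ctsl, chr13:64370738-64370767, minus strand: gcgttagaagcCACGTGctgatctaaattc
Ctss, chr3:95526773-95526802, plus strand: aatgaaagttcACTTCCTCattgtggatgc
The Ctsa stretch holds 2 matches on both sides of the second of its start sites, at -13 and 5 from it. The first Ctsd match begins 99 bases before the start site, and the Ctss match begins 2 bases before it. The members with these letters differed in their values, with Ctsd higher and Ctsl lower in ASC, and no binding was measured here. Tfeb itself was at 19.8 CPM in QSC and 32.7 CPM in ASC over all barcodes (log2 ratio 0.72, 0.11 to 1.41), but at 14.2 and 10.6 CPM in contractile-low cells, where the interval of the log2 ratio, -1.34 to 0.62, spanned 0.

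Macrophage/monocyte-like cells held the highest levels of most members. The 9 members summed to 11111 CPM in QSC (363 UMIs from 16 cells) and 9221 CPM in ASC (5028 UMIs from 85 cells), 5.82-fold and 6.75-fold the level in contractile-low muscle cells of the same library. Cst3 was at 4255 CPM in QSC and 2311 CPM in ASC in these cells, and Ctsb at 2632 and 1669 CPM. Ctss was at 1316 CPM (953 to 1773) and 1463 CPM (1364 to 1569), with overlapping intervals. Lgmn was at 1133 and 576 CPM and Ctsa at 551 and 218 CPM, both higher in QSC. Cstb was at 367 CPM (12 UMIs) and 1133 CPM, and Ctsd at 153 CPM (5 UMIs) and 812 CPM, both higher in ASC. Ctsl was at 275 CPM (9 UMIs) and 495 CPM and Ctsz at 429 CPM (14 UMIs) and 543 CPM, with intervals of the ratio that spanned 0.

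In this class Ctsd and Cstb were past 2-fold higher and Ctsa past 2-fold lower in ASC, beside 10.8% of 4911 genes higher and 34.7% lower, and the median gene had a log2 ratio of -0.36. The cells of the libraries were not alike in markers. Of the 14 macrophage and monocyte markers Plac8, Ly6c2 and Fcgr1 had 0 UMIs in the 16 QSC cells, while Plac8 was at 3446 CPM and Ly6c2 at 3208 CPM in the ASC cells. C1qa was at 4346 CPM in QSC and 125 CPM in ASC. Plac8 and Ly6c2 mark inflammatory monocytes and the C1q genes mature tissue macrophages. Their part in the difference of the members was not tested. The neutrophil-like cluster, 24 ASC cells, held Cstb at 1696 CPM, Ctsd at 1565 CPM and Ctsb at 978 CPM, and the fibroblast-like cluster, 17 QSC cells, held Cst3 at 1466 CPM.

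**Figure D5:**
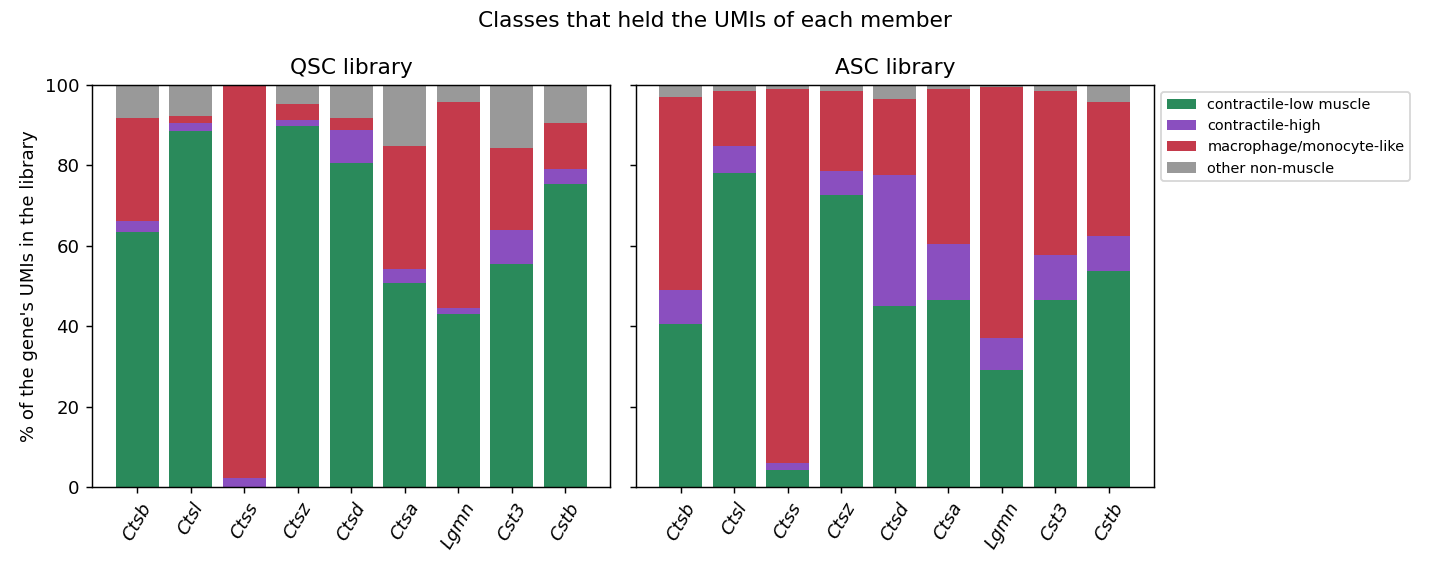
Share of each member's UMIs in a library that lay in contractile-low muscle, contractile-high, macrophage/monocyte-like and other non-muscle barcodes. The vertical axis runs from 0 to 100%. Ctss lay almost wholly in macrophage/monocyte-like cells in both libraries, Ctsl and Ctsz mostly in contractile-low muscle, and Ctsd in ASC was spread over 3 classes.

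The members differed in where their transcripts lay. Of the Ctss UMIs, 97.7% in QSC and 93.0% in ASC were in macrophage/monocyte-like cells. Without non-muscle clusters its log2 ratio was 2.74, on 1 QSC UMI and 52 ASC UMIs. Lgmn had 51.4% and 62.4% of its UMIs in them. Ctsl had 1.76% and 13.5% there, and 88.5% and 78.1% in contractile-low muscle cells. Ctsd had 80.6% of its UMIs in contractile-low cells in QSC, but in ASC 45.0% there and 32.6% in contractile-high barcodes. For Ctsb the macrophage/monocyte-like share was 25.8% in QSC and 48.1% in ASC, and for Cst3 20.5% and 40.9%.

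Ctss was near 0 in muscle. Contractile-low cells had 0 Ctss UMIs in QSC, where the floor of 3 UMIs over the class would be 3.54 CPM, and 37 in ASC (interval 4.93 to 9.65 CPM), at least 1.98-fold more than that floor. The exact interval of the log2 ratio began at 0.61. At 1200 UMIs, 0 of 366 QSC cells held one, which allows a share of up to 0.820% by a floor of 3 cells and 1.003% by the exact interval. In ASC 4 of 409 cells did (0.978%, 0.267 to 2.49), so the difference of the shares was not detectable at this depth. Per 100 UMIs of the 14 macrophage and monocyte markers, Ctss had 5.96 UMIs in the ASC macrophage/monocyte-like cells (5.55 to 6.41), 4.82 in contractile-low cells (3.37 to 6.71) and 2.90 in contractile-high barcodes (1.61 to 4.82). The intervals of the first 2 ratios overlapped. The other members were above their own ratio in the ASC macrophage/monocyte-like cells, by differing amounts. Ctsl had 204 UMIs per 100 marker UMIs in ASC contractile-low cells and 2.02 in the macrophage/monocyte-like cells. Ctsa had 18.6 and 0.889. Of these members Lgmn was nearest to its macrophage/monocyte-like ratio, with 19.04 and 2.35. In ASC contractile-high barcodes Lgmn had 7.72 and Ctsb 30.9, against 2.35 and 6.80 in the macrophage/monocyte-like cells.

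The difference between the libraries in the ratio of inhibitor to protease transcripts depended on the inhibitor and the class. Per 100 UMIs of the 4 papain-like cathepsins, contractile-low cells had 8.14 Cstb UMIs in QSC (6.38 to 10.2) and 29.1 in ASC (27.1 to 31.2). Macrophage/monocyte-like cells had 7.89 (3.99 to 14.2) and 27.2 (24.8 to 29.7). Cstb was thus higher against its target proteases in ASC in both of these classes. In contractile-high barcodes it had 15.4 in QSC (3.90 to 44.3) and 40.75 in ASC (33.8 to 49.0), with overlapping intervals. For Cst3 the same ratio was 38.7 in QSC (34.3 to 43.7) and 41.6 in ASC (39.0 to 44.2) in contractile-low cells, with overlapping intervals, and 91.4 (72.1 to 116) and 55.4 (51.7 to 59.4) in macrophage/monocyte-like cells. In contractile-high barcodes it was 219 in QSC (136 to 363) and 85.75 in ASC (74.0 to 99.3), with intervals apart.

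Other genes of the lysosome were read from 8 lists of 92 genes, of which 41 had a mean of at least 20 CPM in contractile-low cells. Among these, 1 was at least 2-fold higher and 14 at least 2-fold lower in ASC, against 17.8% and 20.7% of all genes tested, with a median log2 ratio of -0.44, against 0.02 for all genes. The gene higher was Cst6, a further secreted cystatin, with 14 UMIs in QSC and 264 in ASC (log2 ratio 1.59, 0.82 to 2.49). Those lower included the cysteine cathepsin Ctsf (41.3 to 7.95 CPM, log2 ratio -2.38), the membrane protein Lamp2 (288 to 66.8 CPM, -2.11) and the saposin precursor Psap (389 to 184 CPM, -1.08). Of the 5 genes for saposins and lipid transfer 4 were lower by 2-fold or more, and the exception was Npc2, a cholesterol carrier, at 171 and 213 CPM. Among 14 tested subunits of the V-ATPase, the pump that acidifies the lysosome, Atp6ap1 (-1.08) and Atp6ap2 (-1.16) were past 2-fold lower, and Atp6v1e1 (0.45) and Atp6v1b2 (0.56) had the highest log2 ratios. The sorting receptor Igf2r, which carries enzymes to the lysosome, was at 47.2 and 21.2 CPM. Over all barcodes 43 of the 92 genes were tested, with 1 higher, 9 lower and a median of -0.10, beside 14.0% and 19.5% of all genes tested.

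Genes whose levels followed the members were ranked over 12 units, each a cluster in 1 library with at least 20 cells, among 2420 genes. The units share libraries and differ in depth, and the correlations of log2 CPM with 10 added are a description. Ctss was closest to Ifitm6 (Pearson's r = 0.99), Ccl9 and Plac8. Cst3 was closest to Psap (0.96), Grn and Hexa, and Ctsb to Unc93b1 (0.97) and Grn. Ctsd was closest to the V-ATPase subunit Atp6v0d1 (0.92), Ctsz to Atp6ap1 (0.97), Ctsl to Slc3a2 (0.98) and Cstb to Sh3bgrl3 (0.98). Within the members, Ctsl and Ctsz were closest (0.96), then Ctsa and Lgmn (0.94), and Ctsl and Ctsd were farthest apart (0.32).

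In GENCODE M21 (GRCm38) Ctsb lies at chr14:63122462-63145923, Ctsl at chr13:64359337-64370890, Ctss at chr3:95526786-95556403 and Ctsz at chr2:174427493-174439039. Ctsd lies at chr7:142375911-142388038, Ctsa at chr2:164832873-164841032, Lgmn at chr12:102394084-102439813, Cst3 at chr2:148871722-148875692 and Cstb at chr10:78425669-78427622. Ctsb, Ctsl, Ctsz and Ctsa overlap counted genes on the opposite strand (Fdft1, Gm47123, Nelfcd, and Neurl2 with Pltp). Ctsd overlaps Gm49369 on its own strand in this annotation, which was not among the counted features. Ctsl and Ctss likewise overlap processed pseudogenes on their own strand, Gm49230 and Hmgb1-ps5, which were not counted. Counts of these members rest on how reads were assigned there.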

How the data were processed

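Single-cell libraries of QSC and ASC were made with the 10x Genomics 3′ v2 kit. The deposited matrices hold UMI counts per gene and barcode, which the authors made with Cell Ranger (7.1.0 in the methods, 6.0.2 in the matrix headers) on mm10. The matrices are filtered to called barcodes. The authors analysed them in Seurat 4.1.0 under R 4.1.2.

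Here barcodes with at least 500 genes and at most 10% mitochondrial UMIs were kept. UMIs were summed per library, class or cluster and scaled to CPM. Levels have exact Poisson intervals, ratios exact conditional binomial intervals and shares exact Clopper-Pearson intervals, all at 95%. They cover counting error only. A level of 3 UMIs, the floor for a count of 0, was 2.58 CPM in QSC and 0.337 CPM in ASC. Clusters were built in Seurat 5.3.0 (R 4.3.3, resolution 0.6, 10 principal components, 1069 variable genes without the members and lysosomal genes). A cluster was named where at least 2 of a type's markers were among its 10 leading genes and at least 3 were detected in 10% of its cells and higher there. Doublets were not removed. TMM factors came from edgeR 4.0.16, with no test.

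Genes named are the members, the extremes of each lysosomal list and the 3 genes most alike to each member. Not every gene under this rule is reported here. Members and lists were chosen with earlier results of these data known, and the naming rule, motifs and pairs of clusters compared after their values were seen.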

Additional observations from a re-analysis of the deposited data

Results flagged for a closer look

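Barcodes left out by the limits on detected genes and mitochondrial UMIs also held the members. In QSC, 250 such barcodes with 183929 UMIs held 142 member UMIs, or 772 CPM (650 to 910), against 1983 CPM in the barcodes used. In ASC, 182 such barcodes with 163992 UMIs held 267 member UMIs, or 1628 CPM (1439 to 1836), against 1611 CPM in those used. Both levels were above the 16.3 and 18.3 CPM that 3 UMIs would give. No explanation was tested.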

How the results depend on the processing

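The summed level of the members depended on barcodes and scaling. Its log2 ratio of -0.30 in all barcodes became 1.06 when mitochondrial UMIs were limited to 1%, which left 80 member UMIs in QSC, 0.0097 under TMM scaling, -0.46 as the mean over barcodes, -0.58 without non-muscle clusters and -0.14 without the deepest 5% of barcodes. Under the 1% limit Ctsb (1.48), Ctsl (0.62), Ctsz (1.56) and Ctsa (0.83) also changed sign and Lgmn went from -0.13 to 2.63, on 1 to 9 QSC UMIs each. The count of members past 2-fold went from 2 to 6 under that limit, to 4 as the mean over barcodes and to 4 without the deepest barcodes. The shares of all genes past 2-fold were not computed in these settings, so these counts cannot be read as a result about the members. Within contractile-low cells the summed ratio of -0.48 became -0.32 as the mean over barcodes, -0.31 without cells of 3 or more macrophage marker UMIs and -0.17 under TMM scaling, the last pair chosen after seeing the data. The causes of these shifts were not tested beyond what each setting removes. The 1% limit, also given in the paper's methods, removed most contractile-low cells of both libraries. Their median mitochondrial shares were 4.89% in QSC and 2.30% in ASC, against 0.719% and 0.175% in contractile-high barcodes. The mix of classes thus changed with it, and 44 of the 80 member UMIs left in QSC were Cst3. Over the alternatives with a value, the log2 ratio within contractile-low cells ranged from -0.91 to -0.54 for Ctsl, -0.89 to -0.52 for Ctsz, -0.82 to -0.38 for Ctsb, -0.76 to -0.37 for Cst3, 0.35 to 0.71 for Ctsd and 0.79 to 1.34 for Cstb. Ctss had no finite ratio there in the main setting and was not followed. No paired analysis was possible because each group is 1 library.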
